A study of Arabidopsis thaliana with 6 samples.

Results

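The cytosolic ribosome of Arabidopsis thaliana is built from ribosomal RNA and one copy each of most ribosomal proteins. The proteins are named S for the small 40S subunit and L for the large 60S subunit, and the acidic P proteins form a stalk on the 60S subunit. Nearly every one of these proteins is encoded by several paralogous genes, and their transcripts are known to be abundant in growing cells. The genes described here were the nuclear rows of the count table whose description held the words ribosomal protein, without rows naming a chloroplast, plastid, mitochondrion, kinase or methyltransferase. They numbered 320 of the 33602 genes in the table.

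The libraries came from the floral abscission zone, where petals, sepals and stamens detach. Plants of all 6 libraries carried the reporter proQRT2::nlsGFP-GUS, and flowers were at stage 16. QRT2 encodes a polygalacturonase, and in the reporter its promoter directs green fluorescent protein to nuclei. One group, REC, held 3 libraries of residuum cells, the abscission zone cells of the receptacle. The other, SEC, held 3 libraries of secession cells, the abscission zone cells of the separated floral organs. Cells were protoplasts sorted by their fluorescence, so each library was meant to hold only cells in which the QRT2 promoter gave enough signal to be sorted. The labels do not give the purity of the sort. PolyA RNA was amplified by a low-input SMART-Seq protocol before sequencing. Nothing in the labels ties the numbered libraries to separate plants or sorts. The p-values here therefore cover the spread among these 3 libraries per group, and that spread may be technical.

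The name of the set was checked against the gene descriptions. Of the 320 genes, 228 were described as 40S or 60S proteins or as P-stalk proteins, and these encode 80 different proteins, 32 of the 40S and 48 of the 60S subunit. The other 92 had only a family or domain name, such as ribosomal protein L18ae family or ribosomal protein S5/elongation factor G family. RefSeq notes named the cytosol for 192 of the 228 genes and an organelle for 28, and 9 had no location note. These counts overlap, since a note can name more than a single place. Among the 92 the notes named the cytosol for 8 and an organelle for 20, and 12 had no location note. The label cytosolic is used here for the 228 genes by their descriptions, although the notes do not name the cytosol for all of them. The 92 are called family-named genes and given apart.

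The libraries held 13222538 to 17192864 counts over genes. Levels are given in CPM, counts relative to a library size scaled by the trimmed mean of M values (TMM). Log2 fold changes are positive where SEC was higher. QRT2 itself was at 22.5 to 79.5 CPM in REC and at 1549 to 1845 CPM in SEC. The summed level of 5 abscission zone markers was 208 to 507 CPM in REC and 7028 to 9042 CPM in SEC, and 4 of the 5 rose and HSL2 fell. Of 8 markers of other cell types (mesophyll, epidermis, guard cells, phloem, xylem and pollen), 5 could be tested. Their 3 calls, RBCS1A, LHCB1.1 and PDF1, were all lower in SEC, and the summed level of the 8 was 663 to 1313 CPM in REC and 2.41 to 4.34 CPM in SEC. RBCS1A, a mesophyll marker, made up most of that sum, at 644 to 1121 CPM in REC. PDF1 and FAMA were at 0 counts in all SEC libraries, and VND7 in all 6 libraries. These markers differ between the same groups as every result below, and their part in the results was not tested. In bulk libraries of sorted cells, fewer cells of a type and less RNA per cell cannot be told apart.

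The sequences shown are of the L10 genes and of regions before gene starts. The last 90 coding bases of the 3 L10 genes, from RefSeq on TAIR10.1, are shown because these paralogues behaved differently and reads must tell them apart. Capitals mark bases that differ from the aligned base of RPL10A or have no aligned base there. In RPL10A they mark the same against RPL10C.
RPL10A: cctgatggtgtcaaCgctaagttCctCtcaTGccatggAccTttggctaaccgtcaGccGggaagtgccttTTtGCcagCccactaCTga
RPL10B: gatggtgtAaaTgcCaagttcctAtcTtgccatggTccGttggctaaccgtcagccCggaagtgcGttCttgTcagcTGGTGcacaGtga
RPL10C: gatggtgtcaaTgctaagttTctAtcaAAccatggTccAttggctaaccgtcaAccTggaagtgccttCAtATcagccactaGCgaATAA
In this stretch RPL10C had 19 marked bases. Over the whole coding sequence RPL10A and RPL10C were 88.5% identical, and their longest identical run was 98 bases.

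A further 3 sequences show the 250 bases before the RefSeq gene start of RPL10C, which rose, of RPL27B, a gene that fell and holds both motifs described below, and of RPL12C, the 40S or 60S gene with the largest fall among genes averaging at least 10 CPM. None of these windows runs into a neighbouring gene. Capitals mark the telo box AAACCCTA and site II, TGGGCC or TGGGCT, on either strand. Both motifs are known from promoters of plant ribosomal protein genes. The 2 forms of site II share their first 5 bases and were counted together.
RPL10C, chr1:24838840-24839089, plus strand: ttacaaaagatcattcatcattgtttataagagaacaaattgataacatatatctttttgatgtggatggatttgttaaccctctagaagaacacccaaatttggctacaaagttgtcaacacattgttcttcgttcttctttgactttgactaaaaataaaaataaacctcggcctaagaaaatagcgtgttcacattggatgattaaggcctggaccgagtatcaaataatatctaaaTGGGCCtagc
RPL27B, chr3:7844598-7844847, minus strand: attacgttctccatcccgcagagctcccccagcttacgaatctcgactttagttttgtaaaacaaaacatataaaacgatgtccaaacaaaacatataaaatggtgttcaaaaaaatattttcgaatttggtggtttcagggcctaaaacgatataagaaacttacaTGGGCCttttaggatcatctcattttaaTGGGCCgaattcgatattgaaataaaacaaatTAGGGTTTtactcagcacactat
RPL12C, chr5:24381600-24381849, minus strand: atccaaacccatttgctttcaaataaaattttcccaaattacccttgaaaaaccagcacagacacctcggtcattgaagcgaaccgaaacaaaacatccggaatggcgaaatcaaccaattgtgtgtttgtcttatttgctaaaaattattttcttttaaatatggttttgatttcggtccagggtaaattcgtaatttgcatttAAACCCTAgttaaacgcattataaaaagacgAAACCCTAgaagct
RPL10C held 1 site II and no telo box, RPL27B held 1 telo box and 2 copies of site II, and RPL12C held 2 telo boxes and no site II.

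The 228 genes for 40S and 60S proteins were nearly all lower in SEC than in REC. Their counts made up 9.45%, 8.48% and 8.14% of all counts over genes in the 3 REC libraries and 0.804%, 0.854% and 0.7% in the 3 SEC libraries. Their summed level was 78137, 68539 and 69123 CPM in REC against 9862, 10011 and 8578 CPM in SEC, with no overlap. The means were 71933 ± 5381 CPM in REC against 9483 ± 788 CPM in SEC (SD, n = 3 each), a 7.59-fold difference. An exact two-sided permutation test of 3 libraries against 3 cannot give a p below 0.1.

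Gene by gene, 213 of the 228 passed the filter on low counts, and 207 of them were lower in SEC by edgeR's quasi-likelihood test (Benjamini-Hochberg adjusted p under 0.05 over all 17246 genes tested). Over all tested genes, 31.9% were called lower and 28.9% higher. RPL10C and RPL27A were called higher, and RPL10B, RPL39B, RPSAB and RPL37A were not called. The median log2 fold change was −3.85, with quartiles of −4.56 and −3.22, against a median of −0.07 over all genes tested. For the whole set of 320 genes, 291 were tested, 264 were lower, 11 were higher and 16 were not called. Every SEC library lay below every REC library for 265 of the 291, and this held for 36.9% of all genes tested. The other 29 genes were not tested: 14 had 0 counts in every library, and the most counted had 144 counts over all libraries.

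**Figure D1:**
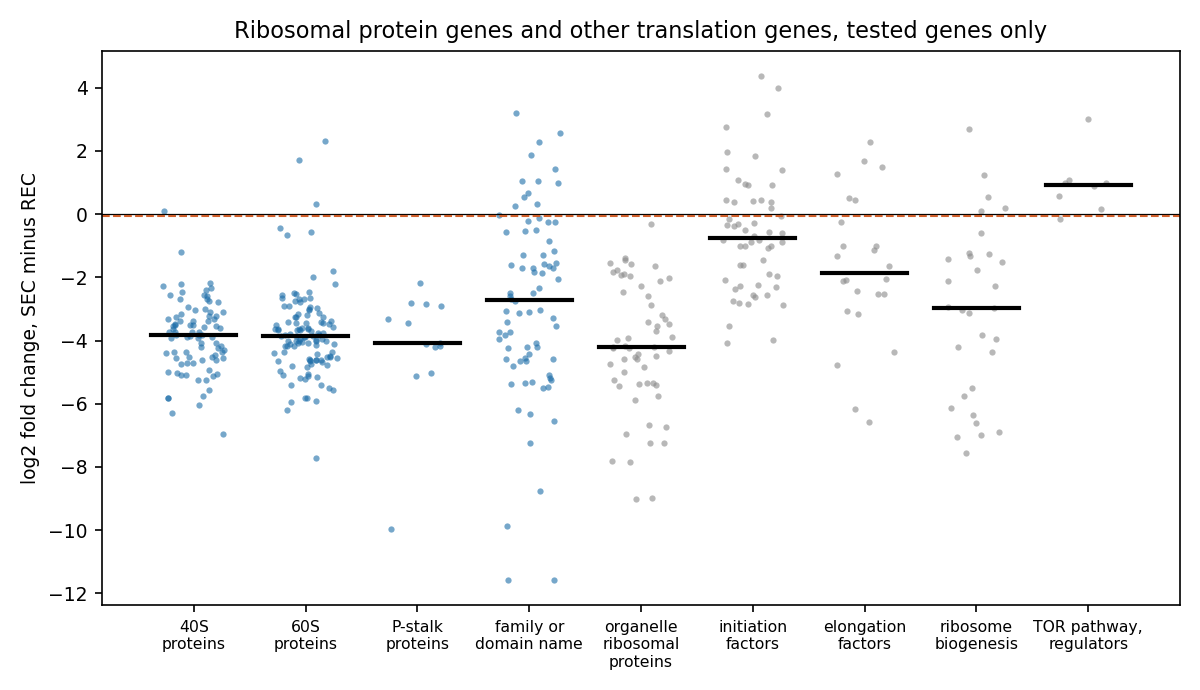
Log2 fold change, SEC minus REC, of each tested gene (points) in the classes of ribosomal protein genes (blue) and in other lists of translation and regulatory genes (grey). Black bars are medians and the dashed line is the median of all genes tested; the medians of the 40S, 60S and P-stalk genes lie at −3.81, −3.86 and −4.09, and that of the TOR pathway list at 0.93.

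The small subunit, the large subunit and the stalk had similar falls. Of the 40S genes, 85 of 86 tested were lower, with a median log2 fold change of −3.81, and RPSAB was not called. Of the 60S genes outside the stalk, 109 of 114 were lower, with a median of −3.86. All 13 genes of the P stalk, which recruits elongation factors to the ribosome, were lower, with a median of −4.09. Summed levels fell from 28119 to 2141 CPM for the 40S genes, which is 13.1-fold, and from 2954 to 244 CPM for the stalk, which is 12.1-fold. For the 60S genes the sum fell 5.76-fold, from 40860 to 7098 CPM. Without the 3 L10 genes that sum was 38650 ± 2666 CPM in REC against 2887 ± 451 CPM in SEC (SD, n = 3 each), a 13.4-fold difference.

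Individual proteins were compared by the summed level of their genes per kilobase of exon. The sum was lower in every SEC library than in every REC library for 79 of the 80 proteins, and L10 was the exception. The count was also 79 of 80 when counts were scaled by library size alone. In REC the 80 sums lay within 333 to 1831 CPM per kb, with a median of 863. In SEC the other 79 sums lay between 11.3 and 139 CPM per kb, while L10 stood at 3599. The median ratio of REC to SEC was 13.1-fold.

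The largest ratios of REC to SEC were those of S12 at 39.8-fold, L11 at 39.7-fold and L12 at 34.2-fold. L11 and L5, which join the 5S ribosomal RNA in a particle assembled before it enters the ribosome, stood at 39.7-fold and 27.8-fold. The main L11 gene, RPL11B at AT4G18730, was at 868, 687 and 535 CPM in REC and at 8.77, 17.5 and 10.4 CPM in SEC. The main S12 gene, RPS12A at AT1G15930, was at 775, 699 and 686 CPM in REC and at 18.3, 25.3 and 17.8 CPM in SEC. Both genes were separated between the groups by more than the whole range within either group. The smallest ratios after L10 were 4.19-fold for L39, a small protein that lines the exit tunnel, 5.08-fold for S2 and 6.38-fold for S30. The S2 ratio is uncertain, since its RPS2B genes have identical coding sequences and reads at more than 1 site may have been lost. Among the stalk proteins P0 fell 14.3-fold, P1 15.2-fold, P2 10.8-fold and P3 8.16-fold. S6, the substrate of the S6 kinases, fell 10.8-fold.

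**Figure D2:**
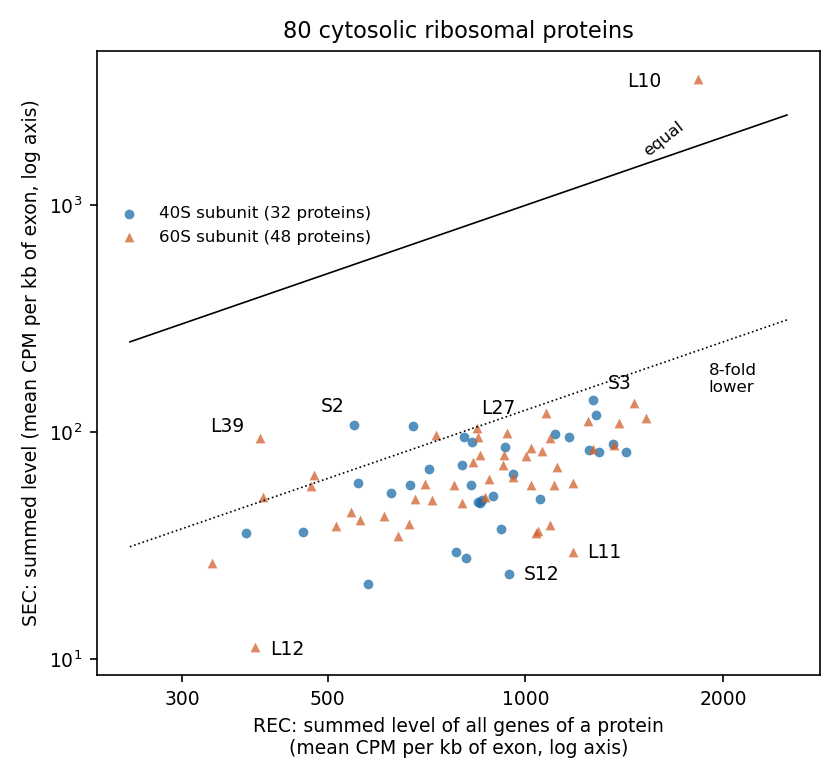
Summed level of all genes of each of 80 cytosolic ribosomal proteins, in CPM per kb of exon, as means of 3 libraries, REC on the horizontal and SEC on the vertical log axis. The solid line marks equal levels and the dotted line an 8-fold lower level in SEC; L10 lies above the solid line at 1831 and 3599, and the other 79 proteins lie below it.

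L10 occupies a position beside the peptidyl transferase centre and is added late in the maturation of the 60S subunit. Its 3 genes are RPL10A (AT1G14320), RPL10B (AT1G26910) and RPL10C (AT1G66580, chr1:24839165-24840612 on the plus strand in TAIR10), for which RefSeq gives the symbol SAG24. RPL10C stood at 1172, 1102 and 893 CPM in the REC libraries and at 3780, 3006 and 3534 CPM in the SEC libraries. Its groups did not overlap, and it rose by a log2 change of 1.70 ± 0.21 (SE; edgeR, adjusted p = 0.000266). Under library size alone, the scaling least favourable to rises, the value was 1.15.

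RPL10A stood at 1132, 1071 and 1225 CPM in REC and at 839, 810 and 642 CPM in SEC. Every SEC library was below every REC library, and the log2 change was −0.58 ± 0.20 (SE; edgeR, adjusted p = 0.0321). This call was lost in 4 of the 6 fits that left out 1 library, with adjusted p-values of 0.0545 without SEC replicate 1, 0.0789 without SEC replicate 3, 0.0807 without REC replicate 1 and 0.0617 without REC replicate 2. RPL10B was expressed at a low level, 12.3, 17.3 and 6.40 CPM in REC and 8.33, 9.0 and 5.47 CPM in SEC, with overlapping groups and a log2 change of −0.66 ± 0.46 (SE; edgeR, adjusted p = 0.246).

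The L10 sum per kb was 1831 ± 87.6 CPM in REC against 3599 ± 348 CPM in SEC (SD, n = 3 each), and it ranked first among the 80 proteins in both groups. With library size alone the sums were 2214 ± 138 and 2975 ± 227 CPM per kb, again without overlap. The log2 ratio of RPL10C to RPL10A counts was 0.05, 0.04 and −0.46 in REC and 2.17, 1.89 and 2.46 in SEC. The difference of 2.30 had an exact two-sided permutation p = 0.1, the smallest that 3 libraries against 3 allow. This ratio does not depend on the scaling between libraries. RPL10C thus went from 49.9% ± 4.87 of the L10 transcripts per length in REC to 82.9% ± 2.80 in SEC (SD, n = 3 each).

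The make-up of the whole class differed between the groups. RPL10C formed 1.30%, 1.40% and 1.13% of the summed level per kb of the 228 genes in REC and 35.5%, 27.3% and 38.1% in SEC. As means these were 1.28% ± 0.134 and 33.6% ± 5.59 (SD, n = 3 each, exact two-sided permutation p = 0.1). RPL10A formed 1.26% ± 0.137 in REC and 6.72% ± 0.438 in SEC on the same scale, although its own level was lower in SEC. These shares are fixed by ratios of genes within a library and do not depend on scaling between libraries.

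**Figure D3:**
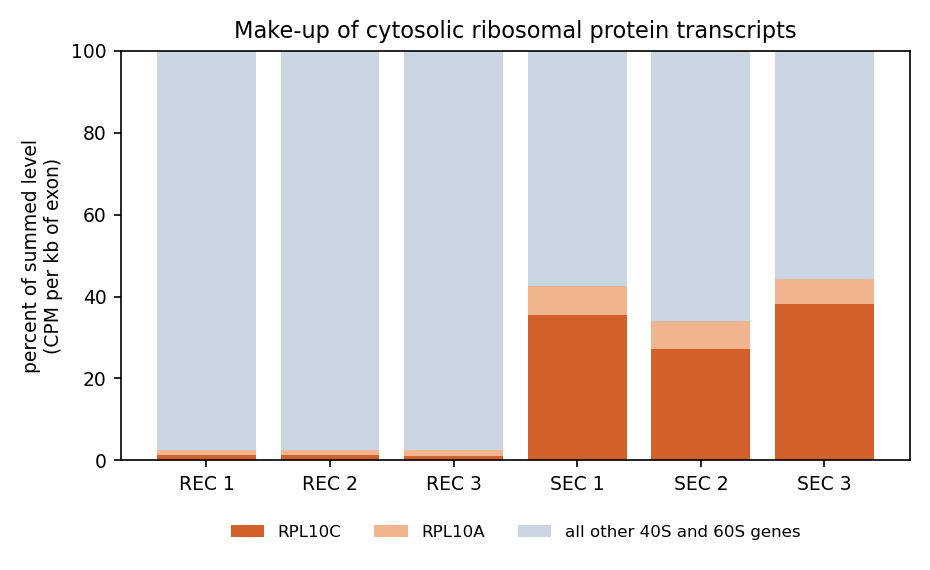
Percent of the summed level of the 228 genes for 40S and 60S proteins, in CPM per kb of exon, taken by RPL10C, RPL10A and all other genes in each of the 6 libraries. RPL10C takes 1.13% to 1.40% in the REC libraries and 27.3% to 38.1% in the SEC libraries.

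The second protein with paralogues called in opposite directions was L27. RPL27A (AT2G32220) rose from 6.38, 7.16 and 6.40 CPM in REC to 29.6, 37.0 and 31.8 CPM in SEC, a log2 change of 2.30 ± 0.27 (SE; edgeR, adjusted p = 0.000218). RPL27B (AT3G22230) fell from 383, 349 and 402 CPM to 24.9, 28.3 and 20.6 CPM, a log2 change of −3.94 ± 0.22 (SE; edgeR, adjusted p = 1.4e-05). RPL27C (AT4G15000) fell from 360, 376 and 501 CPM to 22.3, 26.7 and 23.6 CPM, a log2 change of −4.09 ± 0.24 (SE; edgeR, adjusted p = 1.41e-05). The minor L27 gene of REC thus led in SEC per length of exon. Unlike L10, the L27 sum was lower in SEC, by 8.07-fold. The rises of RPL27A and RPL10C were called under all scaling alternatives, and RPL27A was at 1.76 with library size alone.

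**Figure D4:**
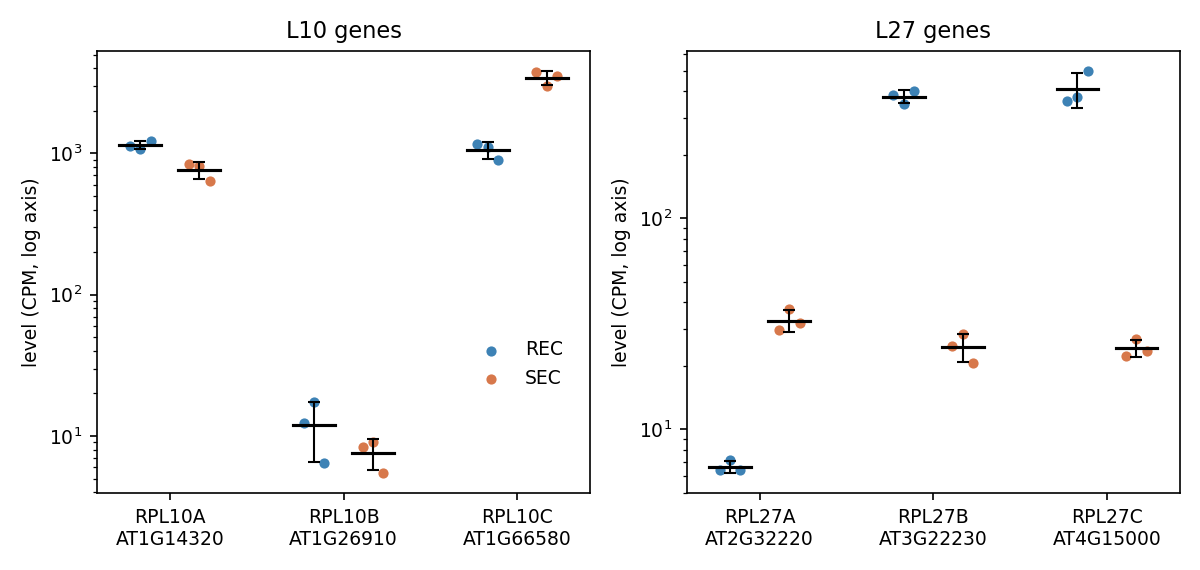
Level in CPM, on log axes, of the 3 L10 genes (left) and the 3 L27 genes (right) in the REC and SEC libraries. Points are libraries, bars are means and whiskers 1 SD of n = 3; RPL10C and RPL27A are higher in all SEC libraries, and RPL10A, RPL27B and RPL27C are lower.

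Paralogues of one protein were compared with each other by the ratio of their counts within a library. For 78 of the 80 proteins, at least 2 genes were tested, and the ratio of the 2 most abundant was compared between the groups. Each ratio was written with the gene that fell less, or rose, on top, so every shift is positive by construction. The ratio did not overlap between groups for 58 of the 78, and for 37 of these it moved by at least 1 log2 unit. The same share was not computed for pairs of other genes, so these counts are not shown to be particular to ribosomal proteins. No single ratio can reach p below 0.1 with 3 libraries against 3. The median spread of log2 fold changes among tested paralogues was 1.47, and 27 proteins had a spread over 2. The gene with the highest level per length differed between REC and SEC for 22 of the 80 proteins.

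The 8 proteins with the largest shift of ratio were Sa, L12, L29, S11, S28, L26, L39 and S20, and in each the exact two-sided permutation p was 0.1. Sa, a 40S protein also known as the laminin receptor homologue, had the largest. The log2 ratio of RPSAB (AT3G04770) to RPSAA (AT1G72370) was −7.24, −7.03 and −6.26 in REC and −2.08, −2.02 and −1.20 in SEC, a shift of 5.08. RPSAA is among the most abundant genes of the class in REC, at 1321, 1106 and 1097 CPM, and fell to 38.1, 46.0 and 30.7 CPM. It overlaps the gene AT1G72360 on the opposite strand, whose reads cannot be told apart from its own with certainty. RPSAB stood at 8.73, 8.43 and 14.3 CPM in REC and at 8.95, 11.3 and 13.4 CPM in SEC, with overlapping groups.

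For L12, which binds the GTPase-associated region of the large ribosomal RNA, RPL12C (AT5G60670) exceeded RPL12B (AT3G53430) in REC and RPL12B exceeded RPL12C in SEC. The log2 ratio of RPL12B to RPL12C was −0.41, −0.56 and −0.50 in REC and 4.26, 2.48 and 4.23 in SEC. RPL12C stood at 237, 236 and 187 CPM in REC and at 0.709, 1.91 and 0.371 CPM in SEC, a log2 change of −7.71 ± 0.53 (SE; edgeR, adjusted p = 2.09e-05). Without SEC replicate 2, its highest SEC library, the value was −8.69. RPL12B fell from 179, 160 and 132 CPM to 14.4, 10.8 and 7.79 CPM.

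In L39 the 2 genes stood at similar levels in SEC: RPL39B was above RPL39C in 2 of 3 SEC libraries and below it in all REC libraries. RPL39C (AT4G31985) fell from 224, 173 and 197 CPM to 26.0, 30.8 and 21.0 CPM. RPL39B (AT3G02190) was at 33.2, 33.4 and 49.8 CPM in REC and at 32.3, 28.3 and 24.7 CPM in SEC and was not called, with edgeR's adjusted p = 0.175. It overlaps AT3G02200 on the opposite strand, and it was called lower with upper-quartile scaling, at −0.69 (edgeR, adjusted p = 0.0483), and with library size alone, at −0.99 (adjusted p = 0.0109). In L26, RPL26B (AT5G67510) and RPL26A (AT3G49910) had log2 fold changes of −2.0 ± 0.33 and −4.48 ± 0.36 (SE). Their log2 ratio went from −2.76 ± 0.08 in REC to −0.25 ± 0.27 in SEC (SD, n = 3 each).

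In the other 4 proteins the leading gene of the pair stayed the same and its lead grew. RPL29A (AT3G06700) exceeded RPL29B (AT3G06680) by a log2 ratio of 3.49 ± 0.24 in REC and 6.64 ± 0.71 in SEC (SD, n = 3 each). RPS11A (AT3G48930) exceeded RPS11C (AT5G23740) by 1.22 ± 0.31 and 4.01 ± 1.42. The S28 gene at AT5G03850 exceeded that at AT3G10090 by 1.39 ± 0.05 and 3.93 ± 0.71, and the S20 gene at AT5G62300 exceeded that at AT3G45030 by 0.84 ± 0.07 and 3.32 ± 0.80. In all 4, both genes of the pair were called lower.

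**Figure D5:**
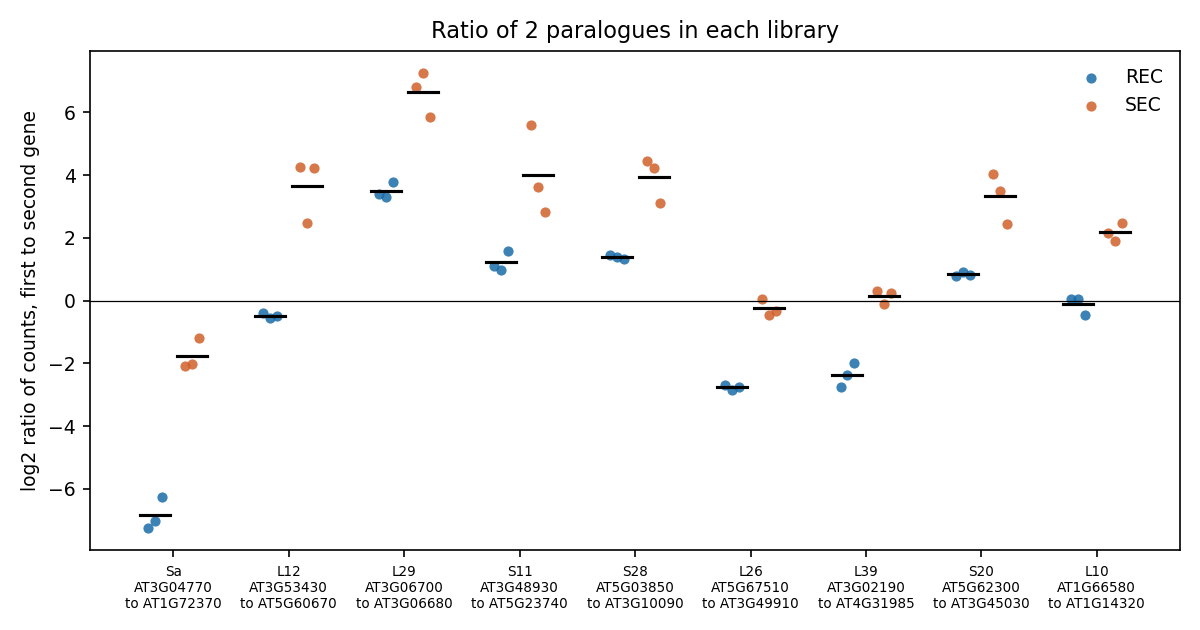
Log2 ratio of counts of 2 paralogues in each library for the 8 proteins with the largest shift, and for L10. Points are libraries and bars are means of n = 3; the gene that fell less, or rose, is on top in each ratio, so the SEC mean is the higher one by construction.

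The genes with the highest level per length, as a mean over all 6 libraries, were RPL10C, RPL10A, RPSAA, RPL40B (AT3G52590), RPS27AC (AT3G62250) and RPS23B (AT5G02960). They held the first 6 ranks among the members in REC. In SEC RPL10C and RPL10A ranked 1 and 2, RPS27AC 6, RPL40B 15, RPS23B 36 and RPSAA 79. L40 and S27a are made as fusions with ubiquitin, and all 5 genes for them were lower in SEC. RPL40B fell from 1034, 837 and 860 CPM to 75.7, 80.6 and 63.9 CPM, and RPS27AC from 994, 860 and 939 CPM to 98.1, 115 and 85.9 CPM. RPS23B, for a protein of the decoding centre, fell from 870, 773 and 718 CPM to 36.2, 47.4 and 30.4 CPM. RPL40B and RPS23B each overlap a gene on the opposite strand. Of the 228 genes 49 do so, and without them 161 of 165 tested genes were lower.

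The largest falls among genes averaging at least 10 CPM were partly in family-named genes. AT2G24090, described as ribosomal protein L35, was at 25.8, 36.4 and 15.7 CPM in REC and had 0 counts in all SEC libraries, so REC was at least 321-fold higher, against a floor of 3 counts over the group. AT1G07830, of the L29 family, was at 26.9, 25.1 and 25.1 CPM in REC and also had 0 counts in SEC, at least 314-fold. Neither description says in which compartment the protein works. AT4G12600, of the L7Ae/L30e/S12e/Gadd45 family, fell from 207, 137 and 146 CPM to 0, 0 and 0.556 CPM, a log2 change of −9.87 ± 0.79 (SE; edgeR, adjusted p = 3.46e-05). SEC replicate 3 held all its 6 SEC counts. Without that library REC was at least 1413-fold higher, against a floor of 3 counts over the other SEC libraries, and without SEC replicate 2 the log2 change was −9.23. AT5G64670, of the L18e/L15 superfamily, had a log2 change of −6.32 ± 1.07 (SE) and SEC counts in replicate 1 alone. Without that library REC was at least 255-fold higher against the same kind of floor, and without SEC replicate 2 the log2 change was −5.72.

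The remaining large falls were those of AT3G01790, RPS10A and RPS11C. AT3G01790, of the L13 family, had a log2 fold change of −6.56 ± 0.47, RPS10A (AT4G25740) of −6.28 ± 0.33 and RPS11C of −6.97 ± 0.58 (SE, edgeR adjusted p between 1.21e-05 and 4.19e-05).

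Of the 92 family-named genes 78 were tested, 57 were lower, 9 were higher and 12 were not called. Over all genes tested, 31.9% were called lower and 28.9% higher. The median change of the family-named genes was −2.73 on the log2 scale. Their 9 rises included 4 genes of L18ae or L18a-like name. How many genes of these names were tested or fell was not counted, so the 4 do not describe that family. AT4G26060 rose from 17.2, 10.7 and 16.0 CPM to 107, 86.8 and 67.9 CPM, a log2 change of 2.57 ± 0.29 (SE; edgeR, adjusted p = 0.000159). AT3G14595 rose from 181, 153 and 118 CPM to 364, 326 and 246 CPM, AT1G17080 from 62.3, 52.3 and 73.1 CPM to 135, 148 and 107 CPM, and RPL18AA (AT1G29970) from a mean of 60.5 to 96.3 CPM. The calls of AT3G14595, AT1G17080 and RPL18AA were lost with library size alone. The other rises named by rule were AT3G22980, of the S5/elongation factor G family, at 2.27 ± 0.51, AT5G63300, of the S21 family, at 1.86 ± 0.27, and AT5G15260, of the L34e superfamily, at 1.42 ± 0.33 (log2 fold change ± SE, edgeR adjusted p between 0.000626 and 0.006). AT3G22980 was at 2.94 without REC replicate 1, and the call of AT5G15260 was lost with library size alone. AT1G17080 and AT5G63300 overlap opposite-strand genes.

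The motifs before the gene starts were counted in the 250 bases upstream. The telo box AAACCCTA was in 21.9% of the 228 genes and in 4.44% of 26711 protein-coding genes. Site II was in 68.9% against 19.4%, and both together were in 17.5% against 1.40%. Among tested genes of the 228, those with a telo box had a median log2 fold change of −4.53 and those without one −3.70. With and without site II the medians were −3.91 and −3.64, and with and without both motifs together −4.13 and −3.74. Over all tested genes with a scanned window the medians were −1.13 with and −0.03 without a telo box, and −0.53 with and 0.11 without site II, a split in the same direction. Of the 11 members that rose, 9 were family-named genes. None of the 11 held a telo box and 3, or 27.3%, held site II. Among tested family-named genes 5.13% held a telo box and 43.6% site II. Among all genes tested with a scanned window the shares were 3.6% and 24.1%. So few risers cannot show a difference from these shares. A match describes letters in a window and not a binding site, and windows that run into a neighbouring gene were kept in these counts.

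Other genes of protein synthesis were not uniformly lower. Over all genes tested, 31.9% were called lower and 28.9% higher. Of 57 tested nuclear genes for chloroplast and mitochondrial ribosomal proteins, 55 were lower and none higher, with a median log2 fold change of −4.21. RPL21 (AT1G35680), a chloroplast protein gene, fell from 92.2, 97.8 and 70.4 CPM to 0.620, 0.682 and 0.371 CPM. Of 31 ribosome biogenesis genes 22 were lower and 3 higher, with a median of −2.97. FIB1, for fibrillarin, which methylates ribosomal RNA, fell from 458, 425 and 566 CPM to 3.63, 4.50 and 6.68 CPM. NOP58-1 and NOP58-2, for core proteins of the same nucleolar particles, had log2 fold changes of −7.56 ± 0.39 and −5.49 ± 0.26 (SE, edgeR adjusted p = 1.17e-05 each). The 3 that rose were LSG1-1, REIL1 and BRX1-1, named after their values were seen. LSG1-1 went from 12.2 to 79.2 CPM, while its paralogue LSG1-2 fell from 23.6 to 4.88 CPM. BRX1-1 went from 30.9 to 73.7 CPM, while BRX1-2 fell from 36.9 to 0.684 CPM, and REIL2 was not called.

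Elongation factor genes were matched by words in their descriptions, and 5 genes of that list belong to the ribosomal protein set as well. Of 24 tested, 17 were lower and 4 higher, with a median log2 fold change of −1.85. Those higher were AT2G26920, AT5G12120 and AT5G53330, described as ubiquitin-associated/translation elongation factor EF1B proteins, and AT3G22980, one of the ribosomal protein set. Elongation factor 1-beta 2 (AT5G19510) fell from 642, 536 and 600 CPM to 21.2, 28.9 and 14.8 CPM. Among 56 tested initiation factor genes, 28 were lower, 10 higher and 18 not called, beside 31.9% lower and 28.9% higher over all genes tested. The median of the initiation factor genes was −0.76. Their summed level was 6126 ± 359 CPM in REC against 5100 ± 441 CPM in SEC (SD, n = 3 each). AT1G77840, an initiation factor 5 gene, rose from 13.9, 12.9 and 7.45 CPM to 212, 179 and 154 CPM, whereas TIF3F1 and EIF3E, for subunits of initiation factor 3, had log2 fold changes of −2.76 ± 0.28 and −2.10 ± 0.21 (SE).

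The TOR kinase is known to promote ribosome production, partly through S6 kinases that phosphorylate S6. In a list of 8 genes of this pathway and of regulators of ribosomal genes, 4 rose, none fell and 4 were not called, beside 28.9% called higher among all genes tested; the median change was 0.93 on the log2 scale. S6K2 (AT3G08720) rose from 25.8, 31.3 and 17.1 CPM to 198, 176 and 223 CPM, a log2 change of 3.01 ± 0.27 (SE; edgeR, adjusted p = 6.16e-05). S6K1 (AT3G08730) was at 80.3, 89.5 and 14.4 CPM in REC and at 117, 127 and 122 CPM in SEC. It was not called (edgeR, adjusted p = 0.155). RAPTOR1A and RAPTOR1B, for the partner protein of TOR, had log2 fold changes of 1.08 ± 0.29 and 0.97 ± 0.24 (SE, edgeR adjusted p = 0.0116 and 0.00839), and ANAC082, a NAC factor of ribosomal stress, rose as well. TOR itself averaged 44.2 ± 11.9 CPM in REC against 66.1 ± 14.6 CPM in SEC (SD, n = 3 each) and was not called. RPS6A and RPS6B, the genes for S6, had log2 fold changes of −3.39 ± 0.24 and −3.52 ± 0.26 (SE). These are transcript levels and say nothing of kinase activity.

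The spread within groups was small beside these differences. The median coefficient of variation of the tested 40S and 60S genes was 12.6% in REC and 22.9% in SEC. REC replicate 3 was the lowest REC library for 118 of these 213 genes and replicate 2 for 82. Of the 228 genes, 17 shared at least 97% of their coding sequence with a paralogue, among them the S2 genes RPS2A (AT1G58380) and RPS2B at 3 loci, so reads at more than 1 site may have been lost and their levels are uncertain. Of the 17, 14 were tested and all 14 were lower.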

How the data were processed

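The authors deposited 1 table of raw gene counts for 3 REC and 3 SEC libraries. The submitters' processing notes name TopHat2 2.0.9, HTSeq 0.6.1, Trimmomatic 0.32.3, Picard 1.119 and the build TAIR10. Annotation release, strand setting and duplicate removal were not stated in these notes or in the labels.

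The members and gene lists were chosen with earlier results of these data known. Differences were fitted in R 4.3.3 by edgeR 4.0.16 (filterByExpr, TMM, quasi-likelihood test, Benjamini-Hochberg adjustment over all 17246 genes tested at 0.05). DESeq2 1.42.0 and limma 3.58.1 were alternatives, with other scalings and filters, a replicate block and each library left out. The edgeR fit was also run on simulated data with 200 changed genes. That is far fewer than were called here, so the run does not show how the scaling behaves in these data. SE is the log2 fold change over the root of the F statistic. Paralogue ratios used counts plus 0.5. Floors were 3 counts over a group, 0.0579 CPM in REC and 0.0817 CPM in SEC, and cover counting error only.

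Named genes were the 8 largest changes per direction at 10 CPM or more without overlap of the groups, the 6 highest per exon length, paralogues called in opposite directions, the pairs of the 8 proteins with the largest shift of ratio, and up to 3 per other list by p. Others were chosen after their values were seen. Exons, notes and sequences came from RefSeq on TAIR10.1, matched by locus for all 320 genes. Table starts were read as counted from 0, which matched 14406 RefSeq gene starts, against 134 otherwise.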

Additional observations from a re-analysis of the deposited data

How the results depend on the processing

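The counts of ribosomal protein genes called lower in SEC ranged from 258 to 267 over all alternatives, and those called higher from 9 to 11 except with library size alone, where 5 were higher: RPL10C, RPL27A, AT4G26060, AT3G22980 and AT5G63300. The median log2 fold change of −3.74 was −3.98 with upper-quartile scaling and −4.27 with library size alone, which moved the median of all genes from −0.07 to −0.31 and −0.61. Library size alone also lowered the share of rises among all calls from 47.5% to 33.7%. Leaving out 1 library gave 261 to 264 lower genes, 9 to 11 higher genes and medians of −3.90 to −3.63.

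RPSAB, whose value of 0.10 was not called, had a negative value in 6 fits: −0.14 with upper-quartile scaling, −0.44 with library size alone, −0.05 with at least 10 CPM in 3 libraries, and −0.05 to −0.02 when REC replicate 1, REC replicate 2 or SEC replicate 3 was left out. With each library left out in turn its values spanned −0.05 to 0.39. RPL10A lost its call with no filter (adjusted p = 0.053) and with the replicate block (0.0769), besides the fits given in the report. The cause of these changes was not tested. With the replicate block, 261 genes were lower and 10 higher. After group means were removed, same-numbered REC and SEC libraries correlated at −0.022, −0.01 and −0.016, and the other REC and SEC pairs at −0.029 to 0.04. These values cannot tell whether same-numbered libraries share plants or a sort. The shifts of the 8 named paralogue ratios kept their direction with a pseudocount of 5 counts and with each library left out. Of the 29 untested genes none had over 144 counts. Why their counts were low was not tested, and reads shared by near-identical paralogues may have been lost.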
